A study of Mus musculus with 12 samples.

Results

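Adarb1 encodes ADAR2, the adenosine deaminase that was inactivated in this mouse study, and it is described here as 1 gene of the 15191 in the gene table. It was taken by its symbol in the gene table and by its Ensembl gene ID in the exon bin table. There it had 18 of the 156805 listed bins. No site in Adarb1 was among the 143 listed editing sites.

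Frontal cortex was compared between 6 male Adar2-/- Gria2R/R mice and 6 male Adar2+/+ Gria2R/R litter mates on the C57BL/6 strain. Both genotypes are homozygous for the Gria2R allele, a genomic codon for the arginine that editing by ADAR2 otherwise places in the GluA2 receptor subunit, so neither group is wild type at that gene. Total RNA was sequenced after removal of ribosomal RNA. The age of the mice, the construction of the Adar2 allele and which of its bases were removed are not given in the labels.

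The deposited tables hold the authors' values over groups of libraries, so no value per mouse, SD or depth per library can be given. As a check of the tissue, Slc17a7, the vesicular glutamate transporter of cortical excitatory neurons, had a mean normalized count of 17440.1 over all libraries in the authors' deposited table. Tbr1, a transcription factor of cortical projection neurons, had 798.5, and Gad1, an enzyme of GABA synthesis, had 8817.4, in the authors' deposited table. The share of genes with a lower mean was 98.9% for Slc17a7, 96.4% for Gad1 and 55.8% for Tbr1. No marker of another brain region was set beside them, so these counts cannot tell cortex from other regions.

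ADAR enzymes turn adenosines of double-stranded RNA into inosines, which ribosomes treat as guanosines. ADAR2 binds its substrates through a pair of double-stranded RNA binding domains and deaminates them with a C-terminal catalytic domain, where a histidine and a pair of cysteines hold zinc and a glutamate transfers the proton. In neurons it edits codons of glutamate receptor subunits and other channel mRNAs. It also edits its own pre-mRNA: inosine at an intronic AA pair is read as a splice acceptor, which adds a stretch of intron to the next exon and shifts the reading frame.

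Adarb1 lies on the minus strand of mouse chromosome 10, from 77290726 to 77418270 on GRCm38, in GENCODE release M21. This annotation holds 13 transcripts of the gene, of which 3 are labelled protein coding, 3 as targets of nonsense-mediated decay and 7 as retained introns. Cutting the gene at every annotated exon boundary and numbering the pieces from the lowest coordinate gave 34 bins, and the deposited bin numbers were read against them. The authors' reads were placed on mm9 and no label names their annotation, so every placement of a bin below rests on this reading of its number. Exon numbers are those of the protein-coding transcript Adarb1-202, which has 11 exons and 711 codons before its stop.

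The following sequences are those of the 3 bins that bear most directly on the enzyme and its splicing, read from the GENCODE M21 transcripts. Exon 6, bin E009 (chr10:77313405-77313573, GRCm38, minus strand), is shown because its usage differed most between the genotypes. Its capitals mark the only run of histidine, alanine and glutamate codons in the coding sequence. They are codons 394 to 396, the zinc-binding histidine and the catalytic glutamate of the deaminase.

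Exon 6: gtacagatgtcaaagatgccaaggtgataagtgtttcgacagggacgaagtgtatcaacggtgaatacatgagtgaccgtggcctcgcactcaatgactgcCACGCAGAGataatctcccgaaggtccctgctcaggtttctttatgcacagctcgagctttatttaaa

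The 47 bases of bin E014 (chr10:77322584-77322630, GRCm38, minus strand) extend exon 4 at its 5′ end in 3 annotated transcripts, and are the stretch that self-editing of the intron adds. Their capitals mark the final AG, the acceptor that the unextended form uses.

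Extension of exon 4: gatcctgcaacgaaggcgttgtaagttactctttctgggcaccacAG

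The 30 bases of bin E007 (chr10:77312348-77312377, GRCm38, minus strand) close exon 7 in a part of the coding transcripts. They keep the reading frame within the deaminase domain, and the whole stretch is in capitals.

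Alternative stretch of exon 7: GTATGACGCCAGACTCTCACCAGCTGACAG

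Exon 6 has 169 bases, which is not a multiple of 3, and wholly contains codons 361 to 415. Joining exon 5 to exon 7 in the annotated coding sequence gives a reading frame of 379 codons before the first stop, of which 20 lie from the join on. The extension likewise shifts the frame: the 2 extended transcripts with an annotated coding sequence have 82 codons, against 711 in the unextended one. Exon 4, bin E013, holds both runs of the form lysine, lysine, any residue, alanine, lysine in the coding sequence, a motif of double-stranded RNA binding domains.

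The first comparison was of the level of the whole gene. Adarb1 had a mean normalized count of 4181.0 over all libraries in the authors' deposited table. Its level in condition A was 21.6% of that in condition B, a log2 difference of A over B of -2.21 (adjusted p = 3.06e-126 in the authors' deposited table). The header names the conditions only A and B and ties neither to a genotype, so this direction stands without one, and it was not settled from Adarb1 itself. In RNA from whole cortex, fewer cells with a transcript and fewer transcripts per cell cannot be told apart.

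Adarb1 had the smallest p of all genes listed. It was 1 of 3 genes, 0.0197% of those listed, with an adjusted p under 0.05 in the authors' deposited table. Cdh13, which encodes a cadherin held to the membrane by a lipid anchor, also passed and was higher in A (log2 difference 0.47, mean count 1695.9, adjusted p = 0.0156) in the authors' deposited table. By the size of the log2 difference Adarb1 was 12th, and the adjusted p of each of the 11 genes ahead of it was 1 in the authors' deposited table. These 11 were all lower in A, among them Lars2, a mitochondrial leucyl-tRNA synthetase, at -3.28, and the muscle genes Ttn and Atp2a1 at -2.40 and -3.68, in the authors' deposited table. Adarb1 was not a rare transcript: 89.8% of genes had a lower mean count. Of 5893 genes with a mean count of at least 1000, 5 differed by more than 1 on the log2 scale, Adarb1 among them. The others of these 5, Lars2 included, were all among the 11 genes ahead of it, none of which passed.

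**Figure D1:**
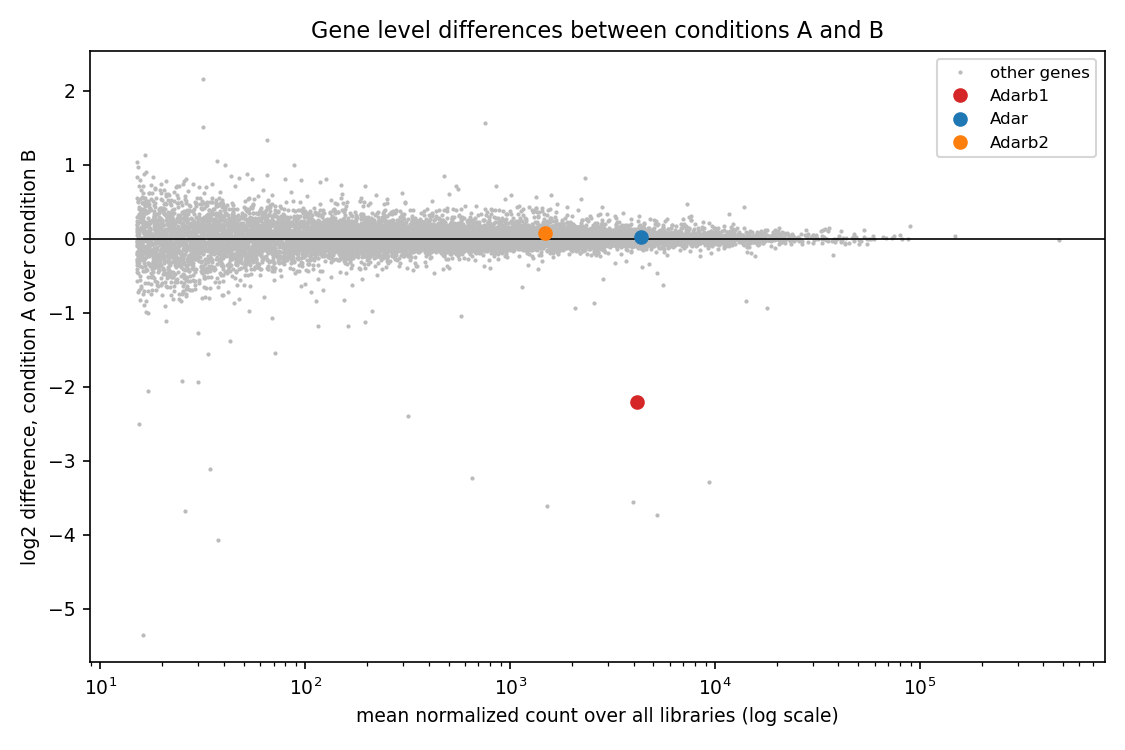
Log2 difference of condition A over condition B of each listed gene (vertical axis) against its mean normalized count over all libraries (horizontal axis, log scale), as the authors deposited them. Adarb1 stands at -2.21, while Adar and Adarb2 stand at 0.02 and 0.08.

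None of the related deaminases passed at the level of the gene. Adar, which encodes ADAR1, the other catalytically active ADAR of the brain, had a log2 difference of 0.02 (mean count 4332.9, adjusted p = 1) in the authors' deposited table. Adarb2 encodes ADAR3, a brain protein that binds double-stranded RNA and has no known deaminase activity. The authors' deposited table gave it a log2 difference of 0.08 (mean count 1472.0, adjusted p = 1). Of a list of 14 RNA and DNA deaminases and their relatives, 9 were listed, and 1, Adarb1, passed. The list includes this targeted gene by choice. Over all genes 0.0197% passed, so the absence of a call among the other 8 is near that share. The other 8 had a median log2 difference of -0.06, against 0.01 over all genes. They ranged from -0.20 for Adat1, a tRNA adenosine deaminase, to 0.38 for Apobec3, a cytidine deaminase that restricts retroviruses, in the authors' deposited table. Cdadc1, a cytidine deaminase relative, had the smallest p among them, 0.0969, with a log2 difference of -0.14 in the authors' deposited table.

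The exon bin table was used to follow the difference along the gene. Per its header it is of the kind made by DEXSeq, so its log2 values are read as a bin's usage within the gene. They name their genotypes and are given here as Adar2-/- over Adar2+/+. A bin near 0 changed in step with the gene as a whole, and a bin with higher usage can still hold less RNA. The authors' deposited table gave an adjusted p under 0.05 for 8 of the 18 Adarb1 bins, against 11 of 149137 bins with a p over all genes (0.00738%). Of the 8, 3 were lower in Adar2-/- (0.00402% of all bins were called lower) and 5 were higher (0.00335%). The only bins called outside Adarb1 in the authors' deposited table were 1 each in Hcfc2, Zfp941 and Vps52. Their log2 values were -0.80, -0.93 and -0.72 in the authors' deposited table.

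The bin called with the largest change was exon 6. Usage of E009 in Adar2-/- was 2.66% of that in Adar2+/+, a log2 value of -5.23 with a p printed as 0 in the authors' deposited table, at a mean count of 165.7 over all libraries. It was the lowest log2 value of all bins listed, and the lowest outside Adarb1 was -3.15. This is the exon whose catalytic codons are in capitals above.

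Both exons just upstream of exon 6 were called lower as well, by less. Exon 5, bin E012, stood at 48.6% of the Adar2+/+ usage in Adar2-/- (log2 value -1.04, adjusted p = 8.88e-11 in the authors' deposited table, mean count 160.5). Exon 4, bin E013, which encodes the double-stranded RNA binding domains, stood at 67.9% (log2 value -0.56, adjusted p = 1.23e-10 in the authors' deposited table, mean count 724.9). The log2 value thus became more negative at each step from exon 4 over exon 5 to exon 6.

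No bin downstream of exon 6 was called. Exons 7 to 10, which encode the rest of the deaminase domain up to the last exon, were at log2 values between -0.15 for E008 and 0.25 for E004 in the authors' deposited table. E004, exon 10, had an unadjusted p of 0.0252 and an adjusted p of 1 there. The last exon, E003, with the end of the coding sequence and the 3' UTR, had a log2 value of -0.20 (p = 1.01e-04, adjusted p = 0.823 in the authors' deposited table). It held 47.7% of the summed mean count of the 18 bins, so the value of the gene as a whole leans on it.

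Neither part of exon 7 was called. Its bin E007 had a log2 value of 0.08 and E008, the constant part of the exon, one of -0.15, with p of 0.657 and 0.192 in the authors' deposited table. The difference between these bins was not tested.

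**Figure D2:**
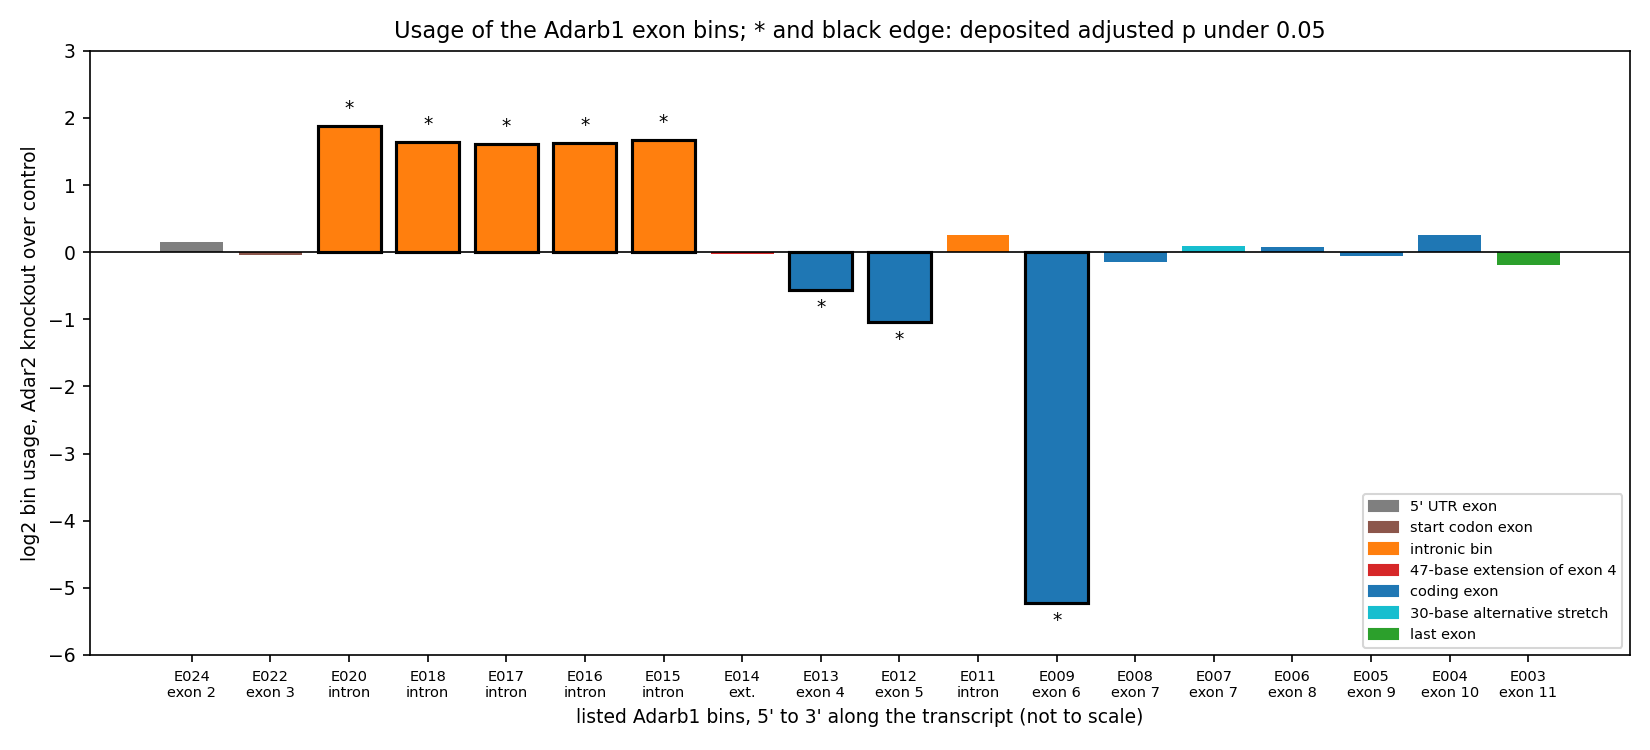
Log2 usage of each of the 18 listed Adarb1 bins in Adar2-/- over Adar2+/+ libraries (vertical axis), in transcript order from 5' to 3' (horizontal axis, not to scale); stars and black edges mark a deposited adjusted p under 0.05. Exon 6 stands at -5.23, exons 4 and 5 at -0.56 and -1.04, and the 5 bins of the intron before exon 4 between 1.61 and 1.88.

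The 5 bins called higher all lay in 1 intron, that between exons 3 and 4. It has 3282 bases in Adarb1-202 and is the intron in which ADAR2 edits the AA pair, called intron 4 in the usual numbering. From 5' to 3' the log2 values were 1.88 for E020, 1.64 for E018, 1.61 for E017, 1.62 for E016 and 1.66 for E015 in the authors' deposited table. Their usage within the gene was thus 3.06-fold to 3.67-fold higher in Adar2-/- than in Adar2+/+. The adjusted p was 2.34e-10, 5.25e-06, 8.69e-06 and 8.88e-11 for E020 to E016 and printed as 0 for E015 in the authors' deposited table. E020 had the highest log2 value of all bins listed, and the highest outside Adarb1 was 1.03. These were all the listed bins of that intron apart from the extension of exon 4, and 4 of them had a mean count under 50.

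The intron values are a description of position, since bins of 1 intron can share reads. A read from RNA that still holds the intron and a read from a transcript with an alternative exon there enter the same bin. E018 is also an exon of 1 transcript annotated as a target of nonsense-mediated decay, and the other bins are annotated only in retained-intron transcripts.

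The other listed intron bin was not called. E011 covers 1112 bases of the intron between exons 5 and 6 and had a log2 value of 0.26 (p = 0.232, adjusted p = 1 in the authors' deposited table, mean count 36.5). Its difference from the bins of the intron before exon 4 was not tested.

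The 47-base extension of exon 4 was not called, between neighbours that were. E014 had a log2 value of -0.03 (p = 0.823, adjusted p = 1 in the authors' deposited table), so its usage in Adar2-/- was 98.0% of that in Adar2+/+. E015, the intron bin just upstream, was at 1.66, and E013, the exon just downstream, at -0.56 in the authors' deposited table. Its differences from them were not tested, and its mean count was 49.7 over all libraries. Reads from self-edited, spliced RNA and from RNA that still holds the intron both enter this bin, and their parts cannot be told apart in the deposited value. Editing of the intronic AA pair itself was not analysed here.

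No listed bin at the 5' end was called. E022, exon 3, which holds the start codon, had a log2 value of -0.04, and E024, exon 2 in the 5' UTR, had one of 0.14, with p of 0.784 and 0.264 in the authors' deposited table. Bins that match exon 1 were not among those listed, and were not analysed here.

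Levels along the gene were compared per length, as the mean normalized count per 100 bases over all libraries of both genotypes. The constant coding exons 4 to 10 had between 77.5 for E013 and 139.6 for E012, and exon 3 had 141.7. The last exon had 54.1 and exon 2 had 61.1. Intron bins were lower: 3.28 for E011, and 10.9 for E015 to 53.5 for E018 in the intron before exon 4. E014 had 105.7 and E007 had 199.0, both within the range of exons or above it. These levels pool both genotypes, between which the usage of E009 and of E015 to E020 differed as given above, so they are not the levels of either genotype. A read that spans a boundary can count in each bin it touches, and its part in the values of short bins was not tested.

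**Figure D3:**
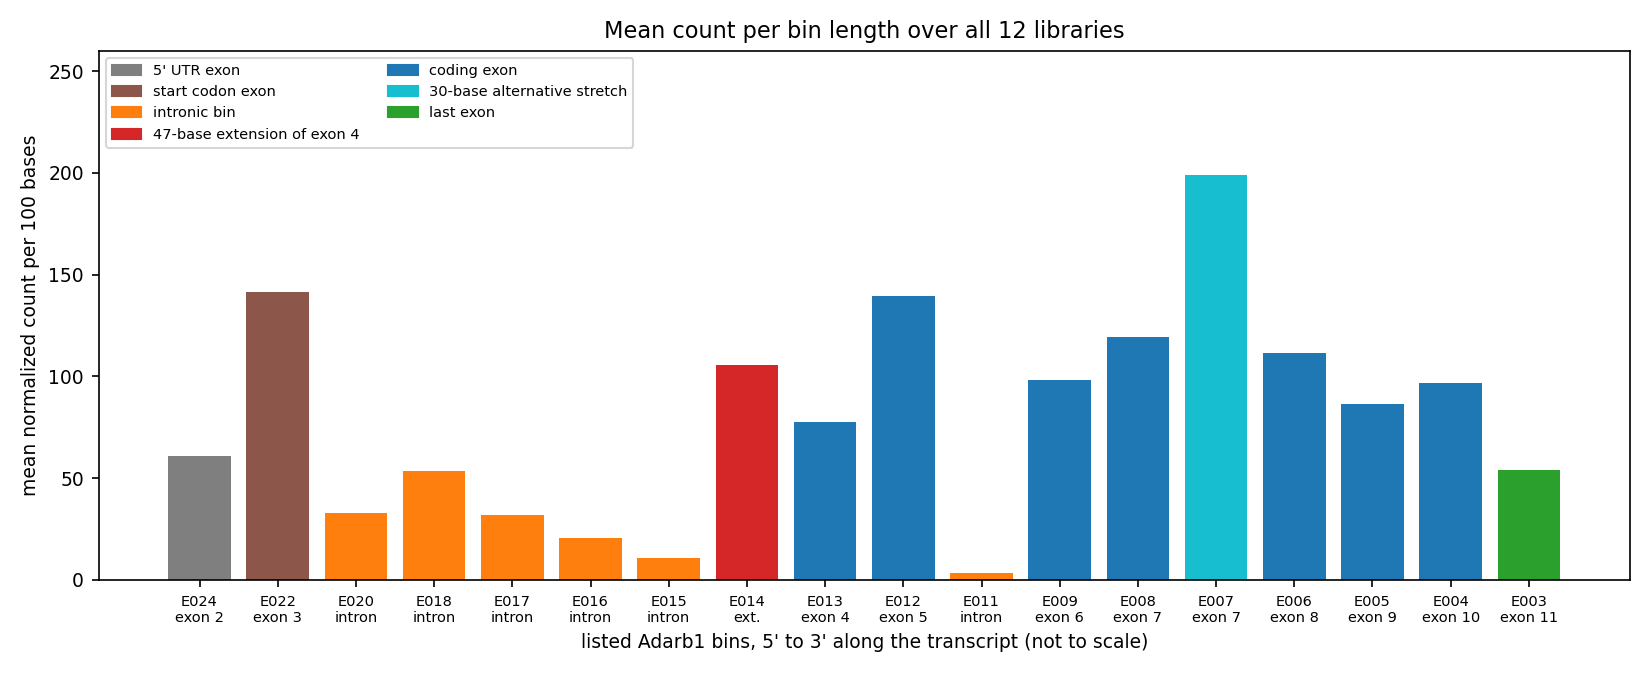
Mean normalized count per 100 bases of each listed Adarb1 bin over all 12 libraries (vertical axis), in transcript order from 5' to 3' (horizontal axis, not to scale), coloured by the kind of bin. Exon bins stand at 54.1 or more, and intron bins between 3.28 and 53.5.

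Over the 18 bins the median log2 value was 0.08, while the mean weighted by count was -0.24. The SD over the bins was 1.59, where the median over 6122 genes with at least 10 such bins was 0.114. All the other genes had a smaller SD. The next in order were an aggregate of 3 overlapping genes at 0.445, Rere, a transcriptional corepressor, at 0.423, and Slc26a7, an anion transporter, at 0.401. Of the 9 bins in the whole table with a log2 value beyond 1.5 in either direction, 6 were in Adarb1. These values describe how unequal the change was along the gene and carry no test.

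**Figure D4:**
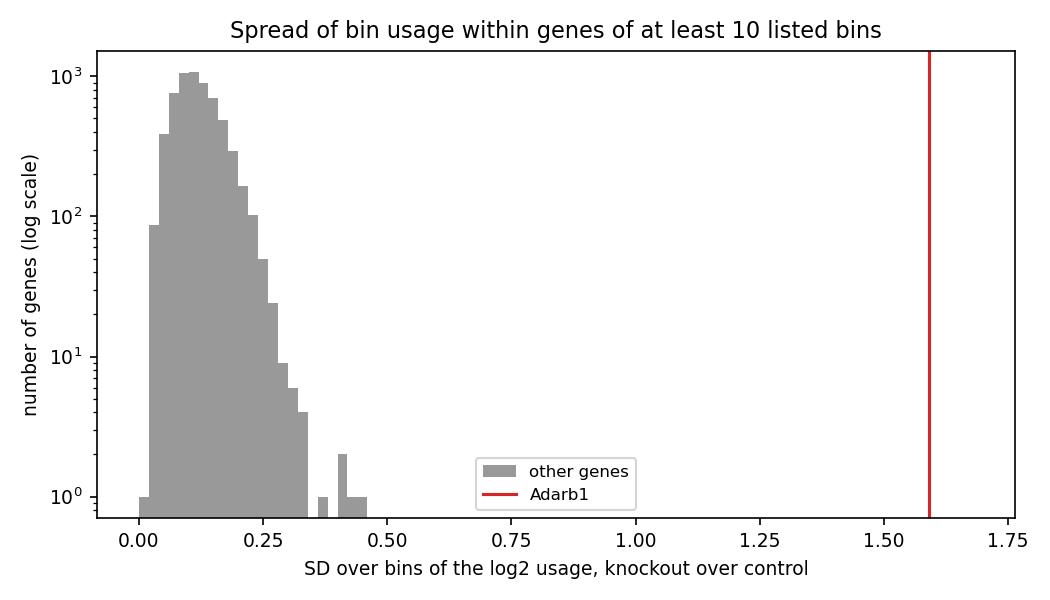
Number of genes (vertical axis, log scale) by the SD over their bins of the log2 usage in Adar2-/- over Adar2+/+ (horizontal axis), for genes with at least 10 listed bins. Adarb1 stands at 1.59, and the next gene at 0.445.

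No bin of the paralogues was called, where 0.00738% of all bins with a p were, so the absence of a call is near that share. None of the 21 Adar bins passed in the authors' deposited table, none had an unadjusted p under 0.05, and their log2 values lay between -0.18 and 0.12. None of the 15 Adarb2 bins passed, 1 had an unadjusted p under 0.05, and the values lay between -0.40 and 0.26 in the authors' deposited table. The SD over the bins was 0.0701 for Adar and 0.181 for Adarb2.

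**Figure D5:**
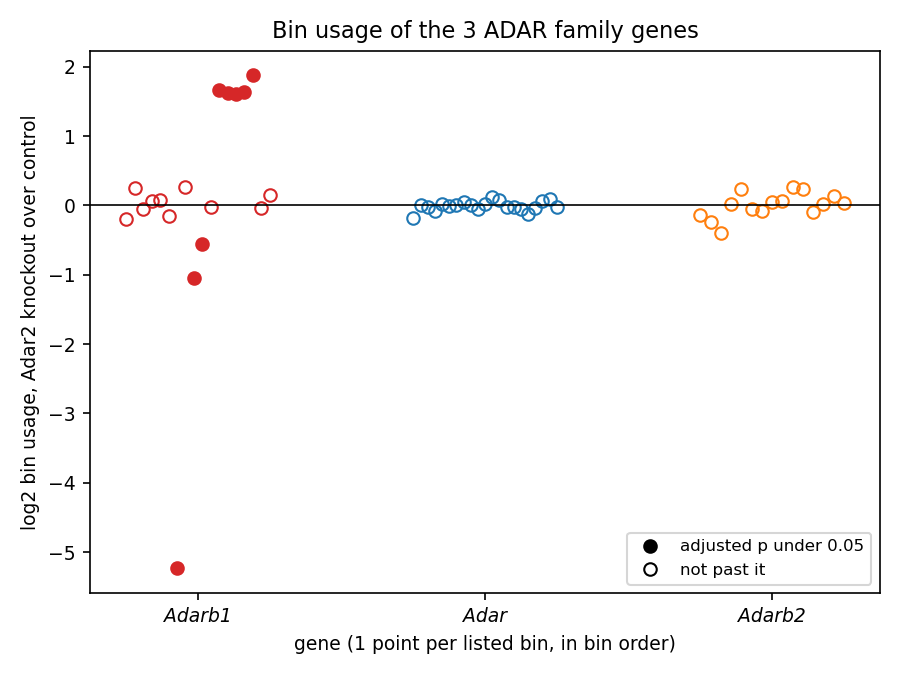
Log2 bin usage in Adar2-/- over Adar2+/+ (vertical axis) for every listed bin of Adarb1, Adar and Adarb2 (horizontal axis, bins in numerical order within a gene); filled points have a deposited adjusted p under 0.05. The 21 Adar bins lie between -0.18 and 0.12 and the 15 Adarb2 bins between -0.40 and 0.26, while Adarb1 bins reach -5.23 and 1.88.

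Known cofactors and regulators of ADAR2 or of its gene were compared at the level of the gene. Of a list of 14, 13 were listed and none passed in the authors' deposited table, where 0.0197% of all genes passed. Their median log2 difference of A over B was -0.03 in the authors' deposited table. None had an unadjusted p under 0.05, as 283 of all 15191 genes did. The absence of a call among 13 genes is near these shares. Wwp2, the ubiquitin ligase that targets ADAR2 for degradation, had a log2 difference of -0.02 (mean count 1298.8) in the authors' deposited table. Ippk, the kinase that makes the inositol hexakisphosphate buried in the deaminase domain, had one of -0.07 (mean count 959.7) in the authors' deposited table. The lowest and the highest of the list were Fmr1, an RNA-binding protein reported to interact with ADAR enzymes, at -0.10, and Itpk1, another inositol phosphate kinase, at 0.02, in the authors' deposited table. Fmr1 also had the smallest p of the list, 0.209.

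Among 22 mRNAs known to be edited in codons, all were listed, and 1 was lower in A and none higher in the authors' deposited table, where 0.0197% of all genes passed. The median of the log2 differences was -0.01 and the highest 0.23, for Cacna1d, a calcium channel subunit. Of these genes 16 had a listed site with an amino acid change, 19 sites in all. Editing was lower in Adar2-/- at all 19, each with an adjusted p under 0.05, where 39.2% of all listed sites were called lower, in the authors' deposited table. The list was drawn up as mRNAs known to be edited in codons, taken as substrates of ADAR2, with earlier results of these data known. Lower editing at its sites thus follows largely from that choice. The 39.2% also includes these 19 sites. The median over the 19 was 9.13% in Adar2-/- and 67.2% in Adar2+/+.

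The editing that remained in Adar2-/- cortex differed between sites. It was 5% or less at 9 of the 19 and 20% or more at 6. The largest fall was at the Y/C site of the kainate receptor subunit Grik2 (chromosome 10, position 48992582 on mm9), with 1.97% in Adar2-/- and 81.3% in Adar2+/+ in the authors' deposited table. The most editing remained in Gria3, an AMPA receptor subunit, whose R/G site had 81.2% in Adar2-/- and 94.2% in Adar2+/+ in the authors' deposited table (chosen after its values were seen). The coverage behind these percentages is unknown.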

How the data were processed

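RNA-seq of frontal cortex from 6 Adar2-/- Gria2R/R and 6 Adar2+/+ Gria2R/R mice was grouped by the genotype label. Build mm9 and, among the tools, DESeq, HTSeq, SAMtools 01.19.0, TopHat2 2.0.6 and Bowtie2 2.02.0 appear without roles in the notes of the authors, per the submitters' processing notes. The authors deposited, per the file headers, mean normalized counts (a signal) per gene and bin, the fold ratio and log2 ratio between conditions, p-values, a dispersion score per bin and the percent of edited reads per genotype. The 2 columns of gene means per condition name no genotype and were not used. The lowest listed mean was 15.0 for genes and 20.0 for bins, and rows below these were not analysed here.

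No test was run on libraries, whose values, depth and batches are not in these tables. Calls use the authors' adjusted p under 0.05, made over all features (for genes, the deposited p and adjusted p of Adarb1 imply 25289 tests). Signs were turned to A over B and to Adar2-/- over Adar2+/+. Bins were rebuilt from GENCODE M21 with Python 3.11.15 and numbered from the lowest coordinate. Of 2896 annotated minus-strand genes with at least 10 listed bins, 2639 had enough annotated ones. In the rest a deposited bin number exceeded those annotated. Over the 2639 the median Spearman rho of bin length and mean count was 0.275 with this numbering and -0.081 with the reverse. For Adarb1 the rho was 0.533 and -0.339 over 18 bins. It compares the directions of numbering and does not test the number of a single bin. Bins of under 30 bases were not among the 18, where the annotation has 9. A further 7 unlisted bins have 30 bases or more, among them E029 of exon 1 with 117 bases, so length does not account for all of them. Sequences were translated with Biopython 1.88 to find codons. The scripts were tested on simulated data.

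Named were Adarb1 with all its bins, Adar and Adarb2, genes called in either table, the extremes and smallest p of each list, and the 3 genes next to Adarb1 by spread. Wwp2, Ippk, Ttn, Atp2a1, Lars2 and the tissue markers were added after their values were seen. The gene, its lists and alternatives were chosen with earlier results of these data known. The third called gene, which is the called one of the edited mRNAs, is not reported here.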

Additional observations from a re-analysis of the deposited data

How the results depend on the processing

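With a mean count of at least 50 and renewed adjustment by Benjamini-Hochberg over those bins, 4 Adarb1 bins were called in place of 8: of the 18 bins 6 have a lower mean count, 4 of them among the called, and the 4 still called were also called among all bins. The count stayed at 8 with a threshold of 0.01 or 0.1, with Benjamini-Hochberg over the listed bins and with Bonferroni. The gene level of Adarb1 passed under the threshold of 0.01, both adjustments over the listed genes and a mean count of at least 100. The counts of called deaminases, regulators and edited mRNAs were 1, 0 and 1 with a threshold of 0.1 and with adjustment over the listed genes. Adarb1 stood at the 99.9th percentile of bin spread with the median absolute deviation and above it with the other alternatives. The median bin value of 0.08 was -0.05 over those of at least 50, less than the SD over bins away. No paired analysis was possible because values are given per genotype only, not per library. Depth per library is unknown, so what it limits could not be measured.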
